A study of Mus musculus with 50 samples.

Results

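Whole lung RNA of mice exposed to the cytokine IL-13 was compared between animals with 1 intact Stat6 allele (Stat6+/-) and animals whose Stat6 was disrupted but which carried the mark Epi+. The arrays were picked by their titles alone: 5 Stat6+/- arrays, numbered 1, 3, 4, 5 and 6, and 5 Epi+ arrays, numbered 1, 2, 3, 4 and 6. These are 10 of the 50 arrays of the series, which also profiled Stat6-/- lung, tracheal perfusate of the same genotypes, and animals given ovalbumin or saline. The comparison asks which lung differences between these animals accompany Stat6 outside the airway epithelium.

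All 3 lung groups used here carried IL-13. The Stat6+/- animals had 1 working allele. The Epi+ animals were Stat6-/- with the Epi+ mark, and a further 5 arrays came from Stat6-/- animals without it. In mouse lines of these names, IL-13 is overexpressed in the lung from a club cell promoter, and Epi+ stands for a transgene that returns Stat6 to the airway epithelium from a promoter of the same kind. Here the labels give only the marks, and they give no strain, age or sex. In such lines epithelial Stat6 comes from the gene itself in Stat6+/- animals and from a transgene in Epi+ animals, and a difference due to its source cannot be told apart from one due to Stat6 in other cells. No lung without IL-13 had these genotypes, so each value below sets 1 genotype against another under IL-13. Whether the arrays of a group are separate animals is not stated, so a p-value here reflects no more than the spread from array to array, part of which may be technical. Precision is limited by having 5 arrays a group.

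As background, IL-13 binds a receptor that holds the IL-4 receptor alpha chain. Janus kinases at that receptor phosphorylate Stat6, which then enters the nucleus and binds DNA as a dimer. In airway epithelium the pathway is known for turning club cells into mucus-making cells. In macrophages it is known for alternative activation, with arginase, chitinase-like proteins and lectins as hallmarks, and in fibroblasts and smooth muscle for the release of eotaxins. Epithelial cells, macrophages and stromal cells of the lung all carry the receptor, so a lung with Stat6 in its epithelium alone lacks the pathway in the others.

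Stat6 is known to bind inverted repeats of TTC and GAA held 4 bases apart, while most other Stat proteins prefer a spacing of 3, TTCNNNGAA. Both motifs read the same on the opposite strand. Promoter windows of 300 bases, 250 before to 50 after the annotated start, are printed for 3 genes. Windows of 17 genes were read for printing, and Clec7a and Retnla are shown because they were the only 2 with the Stat6 spacing, while the other 15, among them Mmp12, Saa3, Gpnmb, Ctsk, Agr2, Slc26a4, Chia1 and Itln1, lack it. Clec7a is a macrophage gene that was higher in Stat6+/- than in Epi+ lung. Retnla had overlapping values in Epi+ and Stat6+/- lung, both above Stat6-/- lung. Mmp12 had the largest difference of all. The sequences come from RefSeq with assembly GRCm38.p6, run 5′ to 3′ on the strand of the gene, and lie on the minus strand at chr6:129472730-129473029 for Clec7a, on the plus strand at chr16:48842359-48842658 for Retnla and on the plus strand at chr9:7347124-7347423 for Mmp12. Capitals mark TTC, 4 bases of any kind and GAA.
Clec7a: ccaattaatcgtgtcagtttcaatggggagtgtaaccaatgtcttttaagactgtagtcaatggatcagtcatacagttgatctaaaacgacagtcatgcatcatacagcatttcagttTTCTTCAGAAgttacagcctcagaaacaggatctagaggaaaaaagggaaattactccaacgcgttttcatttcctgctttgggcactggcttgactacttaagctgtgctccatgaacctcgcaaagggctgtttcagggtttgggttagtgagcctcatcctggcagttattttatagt
Retnla: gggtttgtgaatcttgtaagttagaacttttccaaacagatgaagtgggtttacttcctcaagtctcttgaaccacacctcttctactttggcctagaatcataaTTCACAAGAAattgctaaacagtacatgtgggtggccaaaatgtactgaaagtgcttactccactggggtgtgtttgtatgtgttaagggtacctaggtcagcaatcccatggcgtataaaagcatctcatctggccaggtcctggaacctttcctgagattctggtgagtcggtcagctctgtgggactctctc
Mmp12: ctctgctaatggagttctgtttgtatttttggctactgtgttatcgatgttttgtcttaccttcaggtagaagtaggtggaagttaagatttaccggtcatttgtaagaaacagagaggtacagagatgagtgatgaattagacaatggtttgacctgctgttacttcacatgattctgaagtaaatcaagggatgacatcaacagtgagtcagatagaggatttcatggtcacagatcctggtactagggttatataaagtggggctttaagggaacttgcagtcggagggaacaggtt
The motif begins 131 bases before the start of Clec7a and 145 bases before that of Retnla. The Mmp12 window holds neither motif, and nor does that of its other annotated start, which says only that these letters are not in these windows. RefSeq windows were matched for 9790 of 12351 tested genes, and 6.83% of them held the motif with 4 bases between TTC and GAA. Among genes called higher in Stat6+/- lung, as defined below, the share was 8.49% (23 of 271), and among genes called lower 6.42% (7 of 109). Among the 12 genes called higher in Epi+ than in Stat6-/- lung, 9 had a window and 0 of these held it. The shorter motif TTCNNNGAA stood in 8.48% of all windows' genes, 6.64% of the higher and 3.67% of the lower genes. These shares are descriptions and mark no binding sites.

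Each value is the log2 ratio of a lung sample to a reference pool, centred on the median of its array, so 0 is the level at which the typical spot of that array stood. No label says which channel was divided by which. Sample over reference is the likely direction, and it is used throughout, because Il13 stood above 0 on all 15 IL-13 lung arrays. Pool 3 was the reference of Stat6+/- arrays 4 and 6 and Epi+ arrays 1, 2 and 4, and pool 4 that of Stat6+/- arrays 1, 3 and 5 and Epi+ arrays 3 and 6. Between 15719 and 18325 spots had a value on these 10 arrays, and correlations between pairs of arrays ranged from -0.09 to 0.59. The medians removed averaged -0.52 in Stat6+/- and -0.31 in Epi+ arrays, so all differences are relative to a shift of -0.21. The spread within an array, as the median absolute deviation of its centred values, was 0.94, 1.43, 1.09, 0.99 and 0.71 on Stat6+/- arrays 1, 3, 4, 5 and 6 and 0.57, 0.73, 0.69, 0.58 and 1.07 on Epi+ arrays 1, 2, 3, 4 and 6. It was wider on most Stat6+/- arrays, and with all arrays scaled to one spread the count of calls was 218 in place of 550. Stat6+/- array 1 and Epi+ array 3 moved the count of calls most when left out, to 806 and 273, and the count was 226 without Epi+ array 3 and Stat6+/- array 4 together, the arrays that resembled the other pool most. Because each value is a ratio to a pool, the level of a tissue marker against other genes is not given, and the labelled tissue could not be checked by its markers.

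Il13 and Stat6, which the genotypes alter, come before the rest. Il13, the cytokine itself, stood at 5.98, 5.45, 5.20, 6.05 and 4.02 on the Stat6+/- arrays and 4.90, 5.44, 6.34, 5.80 and 5.22 on the Epi+ arrays, listed by array number here and below. The groups overlapped, and their difference was -0.30 ± 0.36 (log2, SE of the limma fit; adjusted p = 0.693). Stat6, the transcription factor, stood at -0.82, -1.14, -1.37, -0.76 and -0.22 in Stat6+/- and -0.29, -0.13, -0.41, 0.40 and -1.50 in Epi+ lung, with a difference of -0.38 ± 0.28 (adjusted p = 0.503) and again with overlap. No source places the Stat6 probe inside or outside the disrupted part, so its level does not test the genotype. The Epi+ mark was read by setting Epi+ against Stat6-/- lung: Clca1, a goblet cell protease secreted with mucus, averaged 5.83 ± 1.24 (SD, n = 5) in Epi+ and -0.75 ± 0.47 in Stat6-/- lung.

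Stat6+/- lung differed from Epi+ lung at 550 of 16096 probes, 3.42% of those tested, at an adjusted p under 0.05. Of these probes, 386 were higher in Stat6+/- lung (2.4%) and 164 lower (1.02%), and 3063 probes had an unadjusted p under 0.05. The Epi+ group differed from the Stat6-/- group at only 12 probes, all higher (0.0746% of 16096), with 672 probes at an unadjusted p under 0.05. Between Stat6+/- and Stat6-/- lung 779 probes passed (4.84%). These 3 comparisons share arrays and are given side by side.

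The 386 higher probes had a median difference of 1.35 between Stat6+/- and Epi+ lung and 1.32 between Stat6+/- and Stat6-/- lung. Between Epi+ and Stat6-/- lung their median was 0.00, with quartiles at -0.19 and 0.23, and 327 of 386 differed by less than 0.5 there, against 74.1% of all probes tested. The 164 lower probes had medians of -1.34, -1.22 and 0.12 in the same order. Of the probes with values in both pools, all 386 higher and 163 lower ones kept their sign in each pool. In 374 of the 386 every Stat6+/- array lay above every Epi+ array of its own pool, where 7.37% of all 15665 probes did, and 151 of the 163 lay below, where 4.5% did. The same arrays had made these calls, so the counts describe them and add no support. The lower probes rest on fewer values than the higher ones: 87.3% of the higher but 71.3% of the lower probes had a value on all 10 arrays, against 62.3% of all probes tested.

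**Figure D1:**
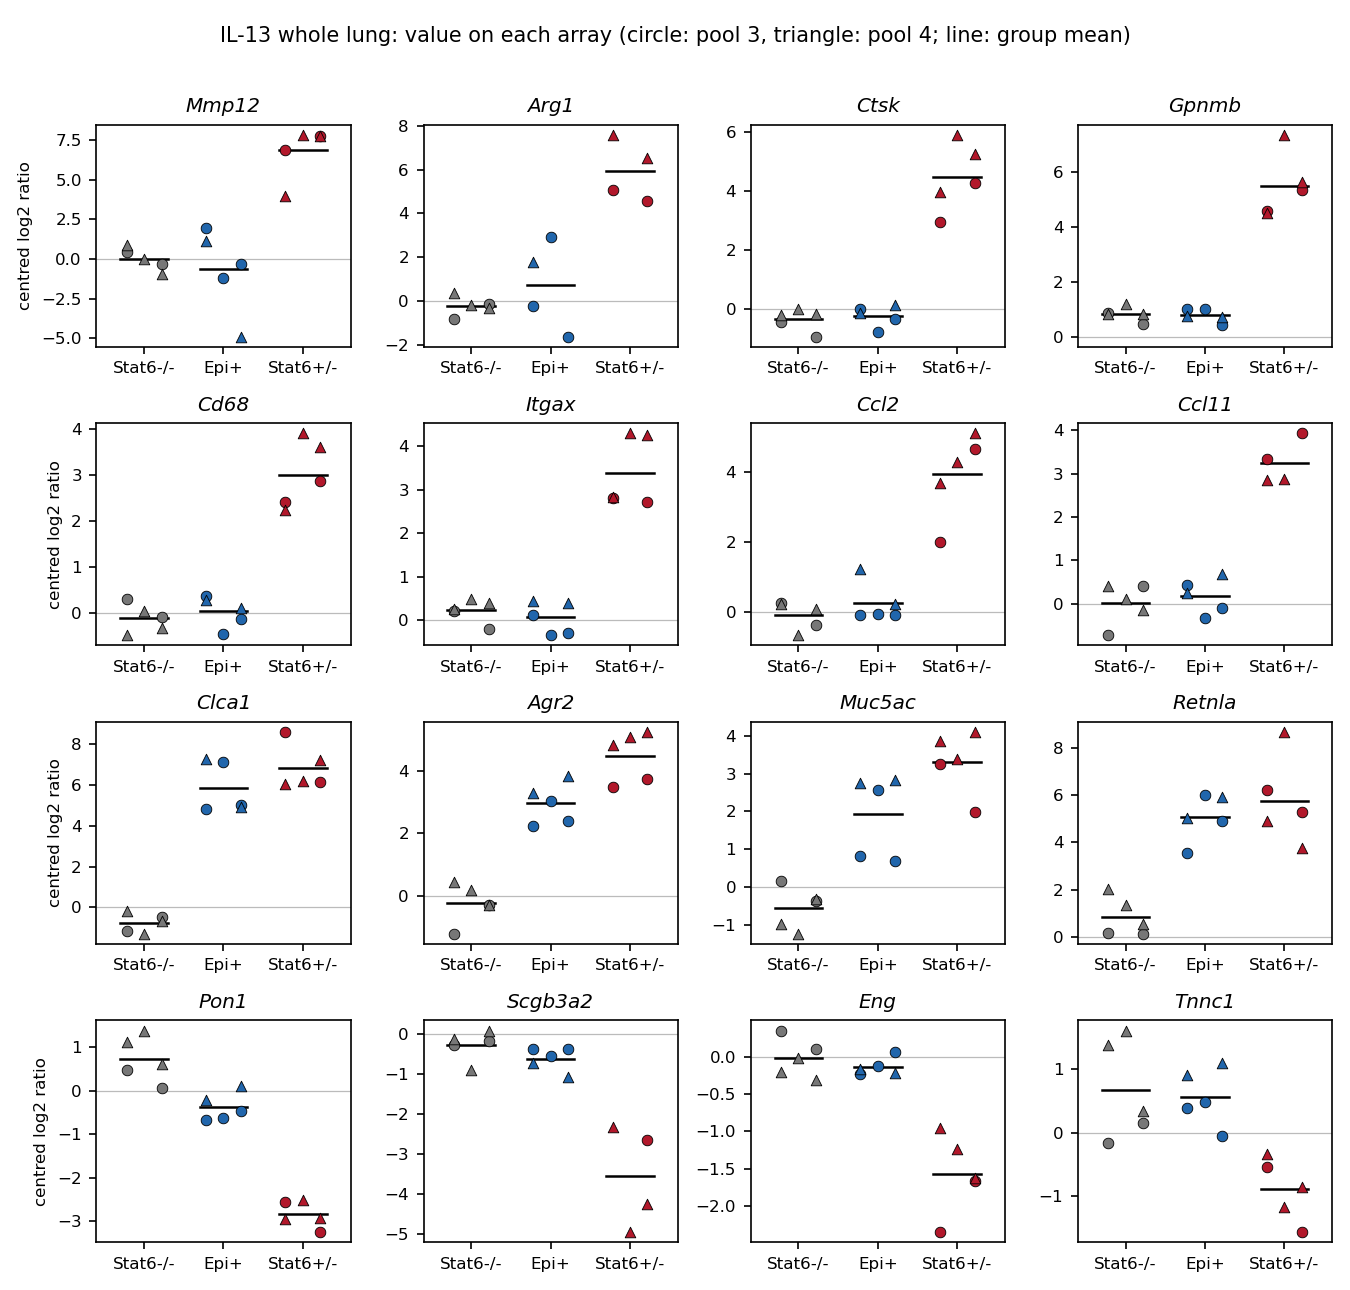
Centred log2 ratio (y axis) of 16 genes on each IL-13 whole lung array, with Stat6-/-, Epi+ and Stat6+/- arrays side by side, circles for reference pool 3, triangles for pool 4 and a line at the group mean; missing points had no value. The macrophage, protease and chemokine genes of the upper panels sit high on Stat6+/- arrays alone, Clca1, Agr2, Muc5ac and Retnla are high on Epi+ arrays too, and the bottom row sits low on Stat6+/- arrays.

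Macrophage genes were among those with the largest differences. Counts of called list members, here and below, are to be read against the 2.4% higher and 1.02% lower over all probes. Of 24 measured macrophage surface and secreted markers, 12 were higher in Stat6+/- lung and none lower, with a list median of 1.53 against 0.03 over all probes. The same list had a median of 0.07 between Epi+ and Stat6-/- lung, where no member passed. Its mean level ran from 1.09 to 2.43 over the Stat6+/- arrays and from 0.03 to 0.56 over the Epi+ arrays, which did not overlap. In whole lung RNA, more cells of a type and more RNA per cell cannot be told apart. Cd68, a scavenger receptor of the macrophage endosome, stood at 2.23, 3.91, 2.43, 3.61 and 2.89 in Stat6+/- lung and 0.37, -0.46, 0.29, -0.12 and 0.11 in Epi+ lung. Every Stat6+/- array lay above every Epi+ array, and the difference was 2.94 ± 0.32 (adjusted p = 0.00045). Itgax, the CD11c integrin chain carried by lung macrophages and dendritic cells, stood at 2.84, 4.30, 2.81, 4.26 and 2.72 against 0.13, -0.34, 0.44, -0.29 and 0.40. Its difference was 3.19 ± 0.27 (adjusted p = 5.34e-05), and again the groups were apart. Gpnmb, a glycoprotein of lipid-laden macrophages, stood at 4.49, 7.34, 4.57, 5.63 and 5.33 against 1.00, 1.00, 0.76, 0.42 and 0.71, a 24.6-fold difference in the fit (log2 4.62 ± 0.43, adjusted p = 9.19e-05).

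The Fc receptors Fcgr2b and Fcgr3 were higher by 2.80 and 2.21 on the log2 scale, and the adaptor genes Fcer1g and Tyrobp by 1.73 and 1.61. The complement C1q chains, made by tissue macrophages, passed as a set of all 3 (C1qa 1.04, C1qb 1.60, C1qc 1.57), as did the integrin chain Itgam (1.50) and the pore-forming protein Mpeg1 (1.46). Adgre1, which encodes F4/80, differed by 2.16 without passing (adjusted p = 0.114). Ccr2, the receptor of incoming monocytes, differed by -1.08 and did not pass either (adjusted p = 0.503). The 12 calls became 8 without Epi+ array 3 and Stat6+/- array 4, and 5 on the values as deposited.

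Lysosomal genes followed the macrophage markers. Of 20 measured lysosomal hydrolases and membrane proteins, 15 were higher and none lower, the highest share of any list, with all 20 differences above 0 and a median of 1.60. Ctsk, a collagen- and elastin-cutting cathepsin, stood at 3.99, 5.92, 2.95, 5.26 and 4.27 in Stat6+/- lung and 0.00, -0.77, -0.12, -0.33 and 0.16 in Epi+ lung. The lowest Stat6+/- array lay far above the highest Epi+ array, and the difference was 4.53 ± 0.38 or 23.1-fold (adjusted p = 5.29e-05). Acp5, the tartrate-resistant acid phosphatase of osteoclasts and macrophages, differed by 2.64 ± 0.26 (adjusted p = 0.000181), with Stat6+/- arrays at 1.12 to 3.43 and Epi+ arrays at -0.85 to 0.18. Among the other cathepsins Ctsl was higher by 2.56, Ctss by 2.28, Ctsd by 2.18, Ctsz by 2.03, Ctsb by 1.70 and Ctsc by 1.09. Ctsh, which alveolar type II cells use to process surfactant protein, differed by only 0.17 (adjusted p = 0.698). The acid lipase Lipa (1.50), the saposin precursor Psap (2.09) and the asparagine endopeptidase Lgmn (1.90) passed, while the membrane protein Lamp1 (0.53, adjusted p = 0.189) did not. Without Epi+ array 3 and Stat6+/- array 4 there were 9 calls, and 5 on the values as deposited.

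Among 17 measured genes of alternative activation, all differences were above 0 and 7 passed, with a median of 1.20. Arg1, which splits arginine to ornithine, had values on 4 arrays of each group, 7.59, 5.07, 6.52 and 4.55 in Stat6+/- and -0.21, 2.95, 1.80 and -1.62 in Epi+ lung. The Epi+ values spread widely but stayed below the Stat6+/- values, and the difference was 4.88 ± 0.82 (adjusted p = 0.0104). That call was kept under 16 of 20 alternatives. Settings that lost it included scaling the arrays to 1 spread and a fit of only the 2 groups. Clec7a, the beta-glucan receptor whose promoter is printed above, stood at 2.10, 3.29, 2.41, 3.08 and 2.99 against 0.56, -0.32, -0.80, -0.42 and -0.97, a difference of 3.24 ± 0.30 (adjusted p = 0.000103). The galactose lectin Clec10a differed by 2.17 ± 0.24, the growth factor Igf1 by 2.38 ± 0.28 and the mannose receptor Mrc1 by 1.90 ± 0.32, each with adjusted p of 0.00642 or lower. The chemokine Ccl17 (1.06) and the feedback inhibitor Cish (1.20, kept under 9 of 21 alternatives) passed with smaller differences. The 7 calls of the list became 4 on the values as deposited and 4 with arrays scaled to 1 spread.

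Retnla, also known as Fizz1 and counted on this list, behaved otherwise. It stood at 4.91, 8.66, 6.21, 3.78 and 5.27 in Stat6+/- lung, 3.56, 5.99, 5.03, 4.92 and 5.92 in Epi+ lung and 2.03, 0.15, 0.14, 1.35 and 0.57 in Stat6-/- lung. The Stat6+/- and Epi+ arrays overlapped, with a difference of 0.56 ± 0.77 (adjusted p = 0.744) that turned to -0.96 when arrays were scaled to one spread. Between Epi+ and Stat6-/- lung it differed by 4.36 ± 0.77, which did not pass (adjusted p = 0.0912). Alox15 (0.53) and Ccl24 (0.22), a lipoxygenase and an eotaxin, were not called between Stat6+/- and Epi+ lung either (adjusted p = 0.728 and 0.937). For the chitinase-like genes Chil3 and Chil4 no probe was found.

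Matrix-degrading proteases and their inhibitors gave 6 higher and no lower genes of 19. Mmp12, the macrophage elastase, stood at 3.99, 7.83, 6.89, 7.75 and 7.77 on the Stat6+/- arrays, at 1.97, -1.18, 1.13, -0.32 and -4.89 on the Epi+ arrays and at 0.88, 0.43, -0.34, -0.01 and -0.96 on the Stat6-/- arrays. All Stat6+/- arrays lay above all others, and array 1 was low among them. The difference from Epi+ lung was 7.70 ± 1.09 (adjusted p = 0.00255), 208-fold in the fit, and 6.49 without Epi+ array 6, whose value was far below the rest. Mmp19 differed by 3.18 ± 0.35 and Adam8, a membrane protease of leukocytes, by 2.23 ± 0.27 (adjusted p = 0.000458 and 0.000891). The collagenase Mmp8 passed at 2.84 ± 0.60 (adjusted p = 0.0232), as did the inhibitors Serpina3n (2.56) and Slpi (1.53), which restrain serine proteases. The gelatinases Mmp2 (0.08) and Mmp9 (-0.55) and the tissue inhibitors Timp1 (-0.62), Timp2 (-0.81) and Timp3 (-0.69) did not pass. Of 30 extracellular matrix genes only Thbs1 (3.18 ± 0.45, adjusted p = 0.00244) and Col15a1 (1.04, adjusted p = 0.0441, kept under 3 of 21 alternatives) passed. The fibrillar collagens Col1a1 (-0.66, adjusted p = 0.164) and Col3a1 (0.50, adjusted p = 0.247) did not.

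**Figure D2:**
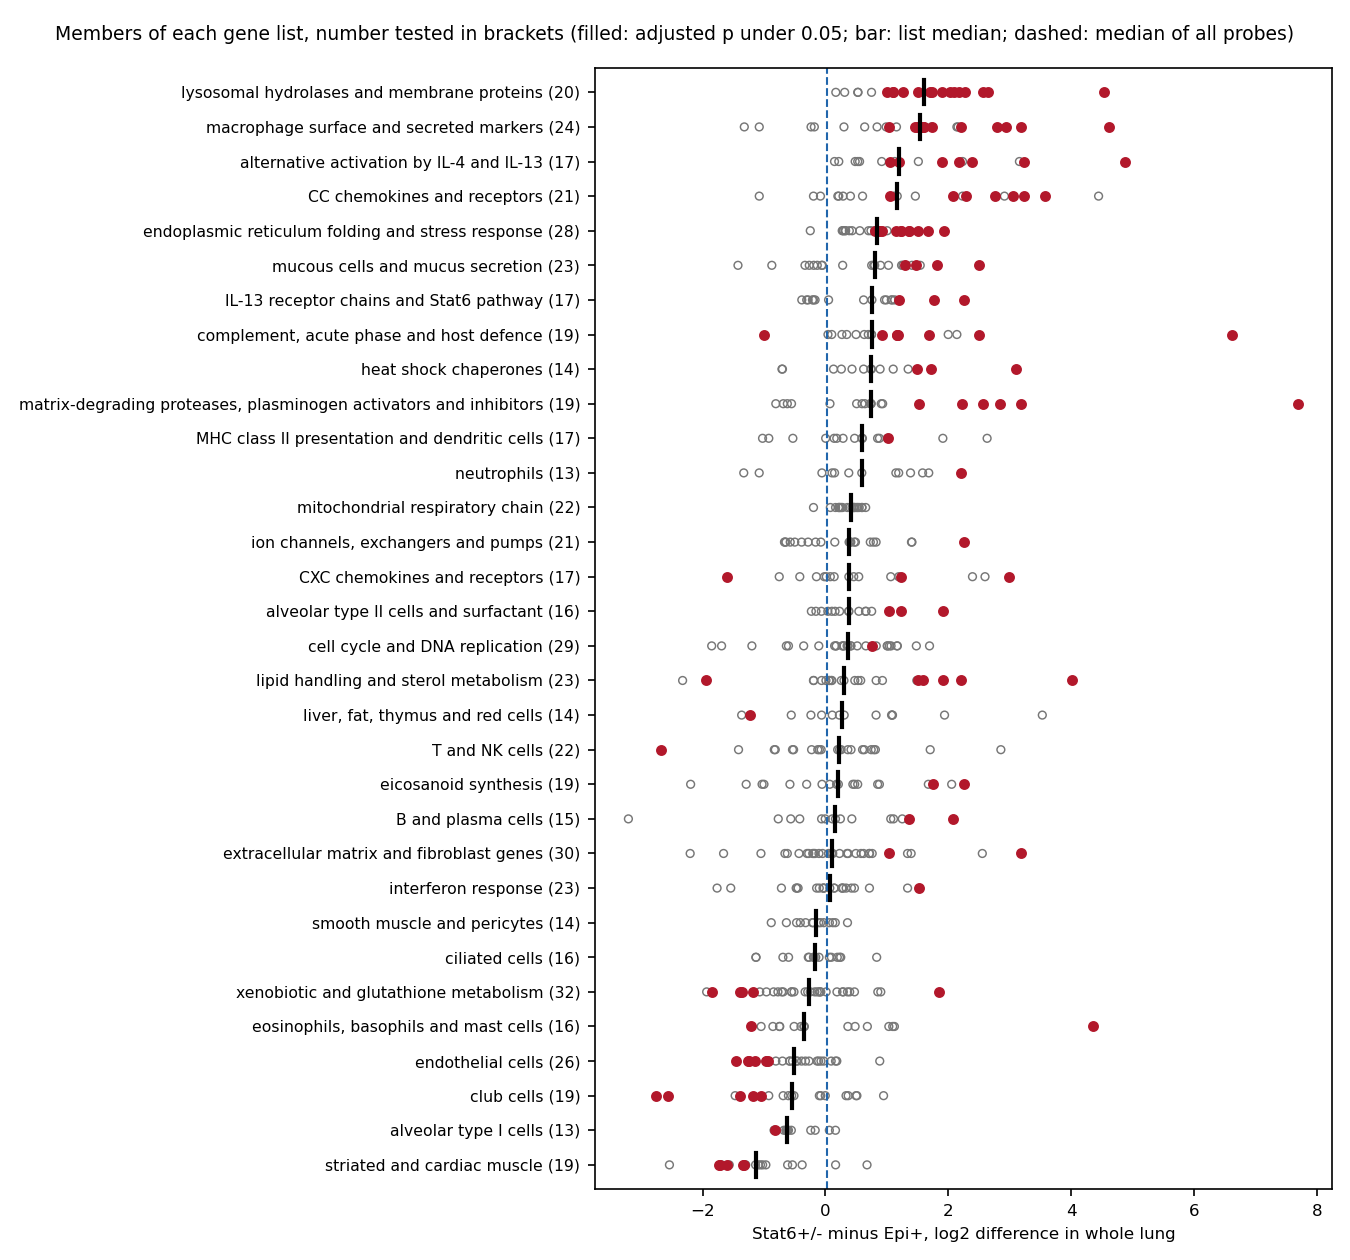
Stat6+/- minus Epi+ log2 difference in whole lung (x axis) for every measured member of 32 gene lists (y axis, members tested in brackets), filled where the adjusted p was under 0.05, with a bar at each list's median and a dashed line at the median of all probes, 0.03. Lysosomal, macrophage, alternative activation and CC chemokine genes lie at the top, and the striated muscle, alveolar type I, club and endothelial lists at the bottom.

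CC chemokines, which draw monocytes, eosinophils and lymphocytes into tissue, included 7 higher and no lower genes of 21. Ccl2, the main monocyte attractant, stood at 3.68, 4.30, 2.02, 5.11 and 4.66 in Stat6+/- and -0.09, -0.05, 1.24, -0.07 and 0.24 in Epi+ lung. Every Stat6+/- value exceeded every Epi+ value, with a difference of 3.58 ± 0.47 (adjusted p = 0.00135). Ccl11, eotaxin 1, had 4 values in Stat6+/- lung, 2.84, 2.88, 3.34 and 3.93, against 0.42, -0.34, 0.25, -0.10 and 0.69 in Epi+ lung, a difference of 3.06 ± 0.32 (adjusted p = 0.000461). Ccl6 and Ccl9, made by macrophages and neutrophils of the mouse, had some of the smallest adjusted p-values. Ccl6 stood at 3.28, 4.25, 3.67, 4.05 and 3.37 against 0.57, 0.25, 0.93, 0.06 and 0.32 (difference 3.23 ± 0.24, adjusted p = 3.12e-05), and Ccl9 differed by 2.75 ± 0.23 (adjusted p = 5.29e-05). The receptor Ccr1 (2.29) and the chemokine Ccl8 (2.08) also passed. Ccl3 and Ccl4 had large but uneven differences of 2.92 and 4.45 that did not pass (adjusted p = 0.151 and 0.0722). Of 17 CXC chemokines and receptors, the neutrophil attractant Cxcl1 (2.99 ± 0.43, adjusted p = 0.00329) and the epithelial Cxcl15 (1.24) were higher, and the platelet chemokine Ppbp (-1.60) was lower.

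The lists of other leukocytes held 1 or 2 calls each, to be read against the 3.42% called over all probes. Of 16 eosinophil, basophil and mast cell genes, Rnase2a, an eosinophil-type ribonuclease, was higher by 4.36 ± 0.74 (adjusted p = 0.00671), while the eosinophil granule gene Epx differed by -0.85 without passing (adjusted p = 0.276). Siglecf, a lectin of eosinophils and resident alveolar macrophages, was lower, with a difference of -1.22 (adjusted p = 0.0377), a call kept under 5 of 20 alternatives. Rnase2a may share signal with its close paralogs. Of 13 neutrophil genes only Ltf passed (2.20 ± 0.40, adjusted p = 0.00997), of 22 T and NK cell genes only the lower Gzmb, and of 15 B and plasma cell genes Fcer2a (2.08) and Xbp1 (1.36). Of 23 interferon response genes, Ifi204 passed (1.52), and of 29 cell cycle genes, Pcna (0.76, kept under 3 of 21 alternatives). Among 17 MHC class II and dendritic genes Cd209a passed (1.02), and the invariant chain Cd74 differed by 0.88 (adjusted p = 0.055).

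In the IL-13 receptor pathway 3 of 17 measured genes passed. Il33, an alarmin stored in nuclei of epithelial and endothelial cells, stood at 3.20, 4.91, 3.93, 3.79 and 3.36 in Stat6+/- and 0.97, 1.56, 1.86, 1.58 and 1.62 in Epi+ lung, a difference of 2.26 ± 0.30 (adjusted p = 0.00166). Against Stat6-/- lung, Epi+ differed by 1.11 ± 0.30 for Il33 without passing (adjusted p = 0.768). The suppressors of cytokine signalling Socs3 (1.77 ± 0.37, adjusted p = 0.021) and Cish were the others. Their calls were kept under 12 and 9 of 21 alternatives, and the list had 1 call on the values as deposited. The receptor chains Il13ra1 (1.07, adjusted p = 0.14) and Il13ra2 (1.09, adjusted p = 0.557) were not called.

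Of the 23 measured members of the mucous cell list, 6 were already higher in Epi+ than in Stat6-/- lung: Clca1, Muc5b, Agr2, Tff2, Slc26a4 and Itln1. Over all genes, Epi+ exceeded Stat6-/- lung at 12 probes, all with a symbol: Clca1, Slc26a4, Itln1, Nadsyn1, Corin, Agr2, Kcnj15, Chia1, Muc5b, Atp2a1, Tff2 and Reg3g. Clca1 stood at 6.03, 6.21, 8.59, 7.21 and 6.12 in Stat6+/- lung, 4.84, 7.10, 7.27, 5.03 and 4.91 in Epi+ lung and -0.16, -1.14, -0.46, -1.29 and -0.69 in Stat6-/- lung. The first 2 groups overlapped and both stood apart from the third, with a Stat6+/- minus Epi+ difference of 1.03 ± 0.62 (adjusted p = 0.397) that changed sign, to -0.86, under scaling. For Itln1, an intelectin of goblet cells, that difference was -0.26 ± 0.80 (adjusted p = 0.891), for Slc26a4, the anion exchanger pendrin, 1.41 ± 0.85 (adjusted p = 0.396) and for the mucin Muc5b 0.80 ± 0.33 (adjusted p = 0.211). A p above the threshold does not show that these levels were equal. The mucin Muc5ac stood at 3.88, 3.40, 3.26, 4.11 and 1.98 against 0.82, 2.57, 2.76, 0.68 and 2.83 and was called in neither comparison (difference 1.26 ± 0.49, adjusted p = 0.183, and adjusted p = 0.141 for Epi+ against Stat6-/-).

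In 5 of these 12 genes Stat6+/- lung was higher still. Agr2, a disulfide isomerase that folds mucins, stood at 4.80, 5.06, 3.49, 5.23 and 3.74 in Stat6+/- and 2.23, 3.04, 3.27, 2.41 and 3.83 in Epi+ lung. These ranges overlap, yet within each pool the groups were apart, with differences of 1.06 in pool 3 and 1.48 in pool 4, and 1.29 ± 0.25 in the fit (adjusted p = 0.0158). Tff2, a trefoil peptide of mucus, differed by 1.81 ± 0.26 (adjusted p = 0.00259), Atp2a1, a calcium pump of the endoplasmic reticulum, by 2.26 ± 0.39 (adjusted p = 0.00831), Nadsyn1, the last enzyme of NAD synthesis, by 2.20 ± 0.41 (adjusted p = 0.0122) and the acidic chitinase Chia1 by 1.24 ± 0.29 (adjusted p = 0.0342). The calls of Agr2, Tff2 and Atp2a1 were lost when arrays were scaled to one spread, where Agr2 differed by 0.17. Pigr, which carries IgA across the epithelium, had Epi+ values between those of the other groups: Stat6+/- arrays stood at 4.02, 4.59, 4.43, 4.31 and 4.83, Epi+ arrays at 2.12, 2.02, 2.29, 1.82 and 1.55 and Stat6-/- arrays at 0.38, 0.96, 0.52, 1.02 and 0.68. No 2 of the groups overlapped for Pigr, and Stat6+/- exceeded Epi+ lung by 2.51 ± 0.21 (adjusted p = 5.29e-05), while Epi+ exceeded Stat6-/- by 1.22 ± 0.21 (adjusted p = 0.0732). Of the same mucous cell list, 4 members passed as higher in Stat6+/- than in Epi+ lung, and the median difference of 0.80 became -0.07 under scaling, with no call.

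**Figure D3:**
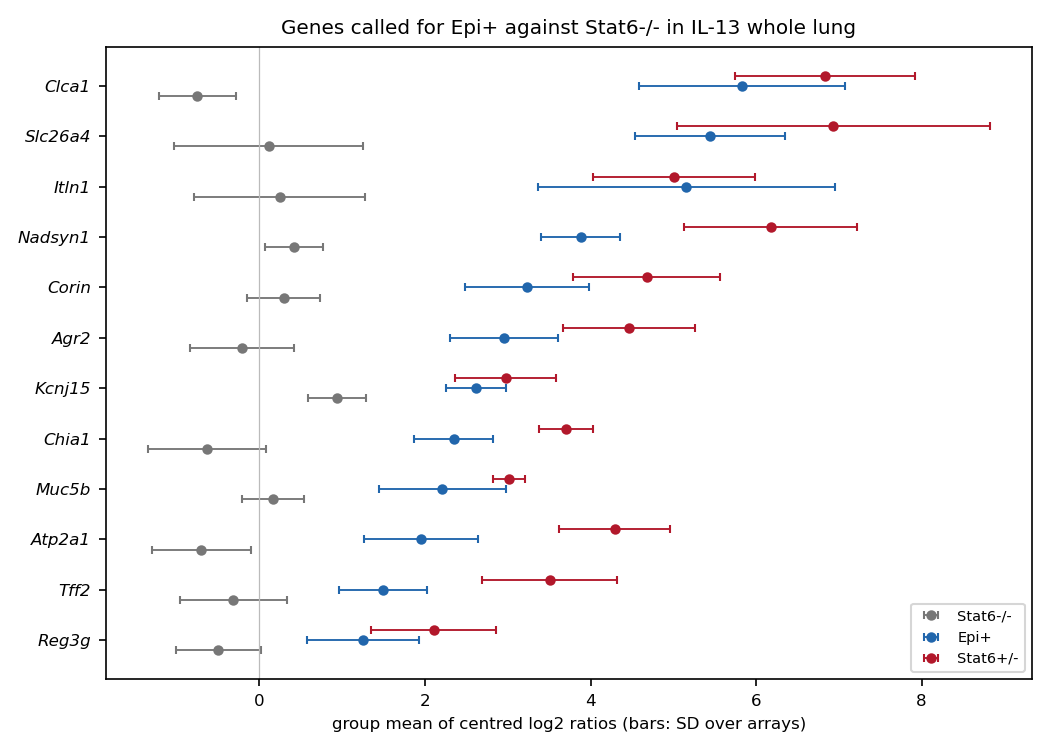
Group means of centred log2 ratios (x axis) with SD over 5 arrays for the 12 genes called higher in Epi+ than in Stat6-/- lung. Epi+ means lie well above Stat6-/- means in every gene, and Stat6+/- means lie close to or above Epi+ means.

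Acute phase, stress and metabolic genes were also among those higher in Stat6+/- lung. Saa3, an acute phase amyloid protein of macrophages and epithelium, stood at 6.61, 7.09, 7.82 and 6.66 on the 4 Stat6+/- arrays with a value and 0.75, -0.97, 0.14, 0.39 and 1.58 on the Epi+ arrays. The groups were far apart, with a difference of 6.62 ± 0.45 or 98.5-fold (adjusted p = 3.12e-05). Of 19 complement, acute phase and host defence genes 7 were higher, among them the endotoxin sensing genes Lbp (0.93), Ly96 (1.17) and Tlr4 (1.16), complement C5 (symbol Hc, 1.19) and the C3a receptor C3ar1 (1.69), and the C5a receptor C5ar1 was lower (adjusted p = 0.034). Of 28 genes of folding and stress in the endoplasmic reticulum, 12 were higher and none lower, and 27 of the differences were above 0, with a median of 0.84. The chaperone Hspa5 (BiP) differed by 1.51 ± 0.19 (adjusted p = 0.00132), its regulator Xbp1 by 1.36 ± 0.22 (adjusted p = 0.00585) and Creld2 by 1.67 ± 0.26 (adjusted p = 0.00376). None of these 28 genes passed on the values as deposited, and 6 did without Epi+ array 3 and Stat6+/- array 4.

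Among 14 heat shock chaperones Hspa1a, Hsph1 and Dnaja1 were higher. Hspa1a, an inducible Hsp70 that may share signal with Hspa1b, stood at 3.12, 2.50, 2.13, 1.87 and 1.59 in Stat6+/-, -0.64, -0.81, -0.56, -1.07 and -1.54 in Epi+ and 1.48, 0.44, -0.68, -0.31 and -0.19 in Stat6-/- lung, with a Stat6+/- minus Epi+ difference of 3.11 ± 0.40 (adjusted p = 0.00132). For Hsph1 and Dnaja1 the difference of Epi+ from Stat6-/- lung was -1.27 and -0.96, without passing. In lipid metabolism, 5 of 23 genes were higher, where 2.4% of all probes were. Ch25h, which makes an oxysterol in activated macrophages, differed by 4.01 ± 0.52 (adjusted p = 0.00188), with Stat6+/- values of 4.60 to 5.83 (4 arrays) against -0.01 to 2.26. The fatty acid binding protein Fabp5 (2.21 ± 0.20), the desaturase Scd1 (1.91 ± 0.23) and the lipid droplet protein Plin2 (1.59) passed, and the liver-type Fabp1 was lower (-1.94 ± 0.32, adjusted p = 0.00597). Thromboxane synthase Tbxas1 (2.25) and the lipoprotein-associated phospholipase Pla2g7 (1.76) were the called genes of 19 in eicosanoid metabolism, where 3.42% of all probes were called. None of 22 genes of the mitochondrial respiratory chain passed, although 21 of the differences were above 0, with a median of 0.42.

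Further large rises lay outside these groups. Rgs1, which ends chemokine receptor signals, differed by 4.10 ± 0.91, the histidine ammonia-lyase gene Hal by 3.88 ± 0.79, Fxyd4, a sodium pump modulator, by 3.63 ± 0.55, the gluconeogenic enzyme Fbp1 by 3.62 ± 0.50, the metallothionein Mt2 by 3.39 ± 0.67 and the leukocyte receptor gene Lilr4b by 3.25 ± 0.38. Their adjusted p-values ran from 0.00103 for Lilr4b to 0.0285 for Rgs1. The Rgs1 call was kept under 9 of 21 alternative settings and that of Hal under 10 of 20, while those of Fbp1 and Lilr4b were kept under every one of their 20.

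The lists with the most lower genes were those of endothelium, club cells and striated muscle. Of 19 measured club cell genes, 5 were lower and none higher, with a median of -0.55, where 1.02% of all probes were lower. The mean level of the list overlapped, at -0.29 to 0.32 over the Stat6+/- arrays and 0.08 to 0.68 over the Epi+ arrays. Scgb3a2, a secretoglobin of club cells, stood at -2.32, -4.97, -4.25 and -2.64 on 4 Stat6+/- arrays and -0.37, -0.55, -0.71, -0.36 and -1.07 on the Epi+ arrays. The groups were apart, with a difference of -2.76 ± 0.47 (adjusted p = 0.0086), so Epi+ lung was 6.76-fold higher. Pon1, a paraoxonase secreted by liver and club cells, stood at -2.94, -2.52, -2.56, -2.92 and -3.25 against -0.67, -0.63, -0.21, -0.47 and 0.12, with Stat6-/- lung at 1.12, 0.48, 0.07, 1.39 and 0.63. It was among the most even of the lower genes, at -2.56 ± 0.22 (adjusted p = 5.34e-05), and the fitted difference of Epi+ from Stat6-/- lung was -1.01, which did not pass (adjusted p = 0.415). The flavin monooxygenase Fmo2 (-1.39), the glutathione transferase Gsta3 (-1.19) and the cholecystokinin receptor Cckar (-1.05) were the others. The 5 calls became 3 on the values as deposited, 2 without the pool block and 1 with only the 2 groups in the fit. Those of Fmo2 and Gsta3 were kept under 11 and 6 of 21 alternatives. Scgb1a1, the main club cell secretoglobin, differed by 0.00 ± 0.34 in the fit (adjusted p = 0.998), but its pools ran opposite ways, at 0.73 in pool 3 and -0.58 in pool 4, with no overlap of the groups in either. Cyp2f2 differed by -0.69 (adjusted p = 0.266). Of 32 detoxifying genes, which share Gsta3 and Fmo2 with the club list, Fmo1 and Adh1 were also lower. They differed by -1.36 (kept under 8 of 21 alternatives) and -1.84 (kept under 2 of 21 alternatives). Gclc, which starts glutathione synthesis, was higher (1.85 ± 0.34, adjusted p = 0.011). None of 16 ciliated cell genes passed. Foxj1, the regulator of motile cilia, differed by 0.23 ± 0.27 (adjusted p = 0.695).

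Of 26 measured endothelial genes, 6 were lower and none higher, with a median of -0.50, where 1.02% of all probes were lower. Eng, the TGF-beta coreceptor endoglin, stood at -0.96, -1.24, -2.35, -1.62 and -1.66 in Stat6+/- and -0.23, -0.12, -0.16, 0.06 and -0.21 in Epi+ lung. The groups did not overlap, and the difference was -1.45 ± 0.24 (adjusted p = 0.00642). The angiopoietin receptor Tek differed by -1.15 ± 0.23 and the VEGF receptor Kdr by -1.24 ± 0.28 (adjusted p = 0.0173 and 0.032), and Ednrb (-1.25), Plvap (-0.97) and Acvrl1 (-0.94) passed as well. The call of Ednrb was kept under 3 and that of Kdr under 5 of 21 alternatives. The junction genes Cdh5 (-0.58, adjusted p = 0.41) and Pecam1 (-0.32, adjusted p = 0.387) did not. No endothelial gene passed on the values as deposited or after quantile normalization, and the mean level of the list overlapped between the groups, with Epi+ arrays at -0.37 to 0.17. Of 13 alveolar type I genes Cav1 was lower (-0.82, adjusted p = 0.0483, kept under 4 of 21 alternatives), and of 16 genes of type II cells Sftpd (1.03, kept under 5 of 21 alternatives), Cxcl15 and Scd1 were higher, while Sftpc differed by 0.23 (adjusted p = 0.684).

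Genes of striated and cardiac muscle had the lowest median of all lists, -1.14, with 5 lower and none higher of 19, where 1.02% of all probes were lower. Tnnc1, cardiac troponin C, stood at -0.33, -1.16, -0.54, -0.85 and -1.56 against 0.39, 0.49, 0.90, -0.05 and 1.10, which did not overlap, a difference of -1.59 ± 0.30 (adjusted p = 0.0138). Myl4 (-1.73), Myh6 (-1.72, kept under 3 of 21 alternatives), Tnnt2 (-1.34) and Ckm (-1.32), which encode contractile proteins of heart muscle and muscle creatine kinase, were the others. The mean level of this list ran from -1.41 to -0.69 in Stat6+/- and from -1.01 to 0.33 in Epi+ arrays and overlapped. No gene of it passed after quantile normalization, without the pool block or with only the 2 groups in the fit. How far muscle carried along with the lung enters the other lower genes was not tested. None of 14 smooth muscle genes passed.

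Several of the largest falls rest on few arrays. Defb4, a beta-defensin, stood at -4.85, -6.77, -7.06, -4.05 and -5.69 in Stat6+/- lung and -3.13, -4.26, -2.82 and 5.53 on 4 Epi+ arrays. Its Epi+ values spread over more than the difference of -5.62 ± 1.36 (adjusted p = 0.045), which became -3.10 without Epi+ array 6 and lost its call under 18 of 20 alternatives. Stra8, Zswim5, 4930471E19Rik, Alg9, Hexim2, Myf5 and Dsc1 had 3 Stat6+/- values each, with differences from -4.25 (Stra8) to -2.46 (Dsc1). The Zswim5 call was kept under 16 of 17 alternatives. Those of Hexim2, Dsc1, Stra8 and 4930471E19Rik were kept under 3, 6, 7 and 7 of 17. For Myf5 it was 5 of 16 and for Alg9 6 of 15. A second probe for Alg9 differed by 0.99 and did not pass (adjusted p = 0.313). Cyp7a1, the rate-limiting enzyme of bile acid synthesis, differed by -3.79 ± 0.80 over 4 arrays a group, and its call was kept under 7 of 20 alternatives. Krtap17-1, a hair keratin-associated gene, stood at -1.36, -4.69, -1.20, -1.49 and -3.12 against 0.55, 0.45, 1.07, 0.32 and 1.39 on all 10 arrays and differed by -3.26 ± 0.63 (adjusted p = 0.0155). Glp1r, the GLP-1 receptor, differed by -3.07 ± 0.73 (adjusted p = 0.04), and its call was kept under 6 of 21 alternatives. The vomeronasal pseudogene Vmn2r-ps54 differed by -2.77 on 4 Stat6+/- and 3 Epi+ arrays, while its second probe differed by -0.65 and did not pass (adjusted p = 0.72). Gzmb, a granzyme of cytotoxic cells, differed by -2.67 ± 0.67 (adjusted p = 0.0496). The Gzmb call was kept under 2 of 20 alternatives. Among the genes of this paragraph, Stat6+/- lung was also called lower than Stat6-/- lung only for Zswim5, Myf5, Krtap17-1 and Gzmb. For 4930471E19Rik, Alg9 and Vmn2r-ps54, Stat6-/- lung averaged -0.65, -0.50 and -0.38, nearer to Stat6+/- lung (-0.83, -1.36 and -1.14) than to Epi+ lung. Epi+ lung averaged 2.41, 1.65 and 1.69 for these genes, and its difference from Stat6-/- lung did not pass.

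The same genotypes had been measured in tracheal perfusate, whose RNA was amplified before labelling, on 5 Stat6+/- and 5 Epi+ arrays that were not used above. There 4 of 16873 probes differed between the genotypes (0.0237%), 3 higher (0.0178%) and 1 lower (0.00593%) in Stat6+/- animals. None of these 4 was among the probes called in lung, where 3.42% of all probes tested were called. So few probes cannot show whether the calls of the tissues differ. Of the 386 probes higher in Stat6+/- lung, 259 of the 384 measured in perfusate had a difference above 0, with a median of 0.13. Of the 164 lower probes, 92 of 157 had one below 0, with a median of -0.11. The difference between tissues was tested for each probe, and 347 of 15976 passed (2.17%), 231 of them positive (1.45%) and 116 negative (0.726%). Among the probes called in lung, 174 of 385 higher ones and 63 of 162 lower ones passed with the same sign. The lung values take part in both tests, so these shares are descriptions.

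Several macrophage and protease genes had the smallest adjusted p-values of the tissue term among the named genes. For Ctsk it was 4.27 ± 0.40, for Cd68 3.22 ± 0.32, for Itgax 3.07 ± 0.33, for Clec7a 3.35 ± 0.37 and for Mmp19 3.36 ± 0.39, each with an adjusted p of 4.09e-06 or lower. Their genotype differences in perfusate were 0.26, -0.28, 0.11, -0.11 and -0.18. Mmp12 had the largest term, 7.46 ± 1.09 (adjusted p = 0.000157), and Arg1 had 5.10 ± 0.74 (adjusted p = 0.000142). Among the macrophage markers 8 of 24 passed this term, and 11 of 20 lysosomal genes and 6 of 17 genes of alternative activation did. Over all probes tested for it, 2.17% passed. For Hspa1a, Ccl11 and Il33 the perfusate differences were 1.80, 1.53 and 1.09, and their tissue terms did not pass (adjusted p = 0.298, 0.242 and 0.452). The macrophage marker Fcgr2b differed by 1.02 in perfusate, and its tissue term did not pass either (adjusted p = 0.103). Fmo2 differed by -1.28 in perfusate and -1.39 in lung. Tissue, reference, and amplification of the perfusate RNA cannot be told apart in this term. Its fit shares 1 spread per probe over both tissues. For Mmp12 the SE was 1.09 in lung alone and 0.24 in perfusate, and for Arg1 0.82 and 0.22. The SE and adjusted p of the term can therefore be too small where lung arrays vary more.

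**Figure D4:**
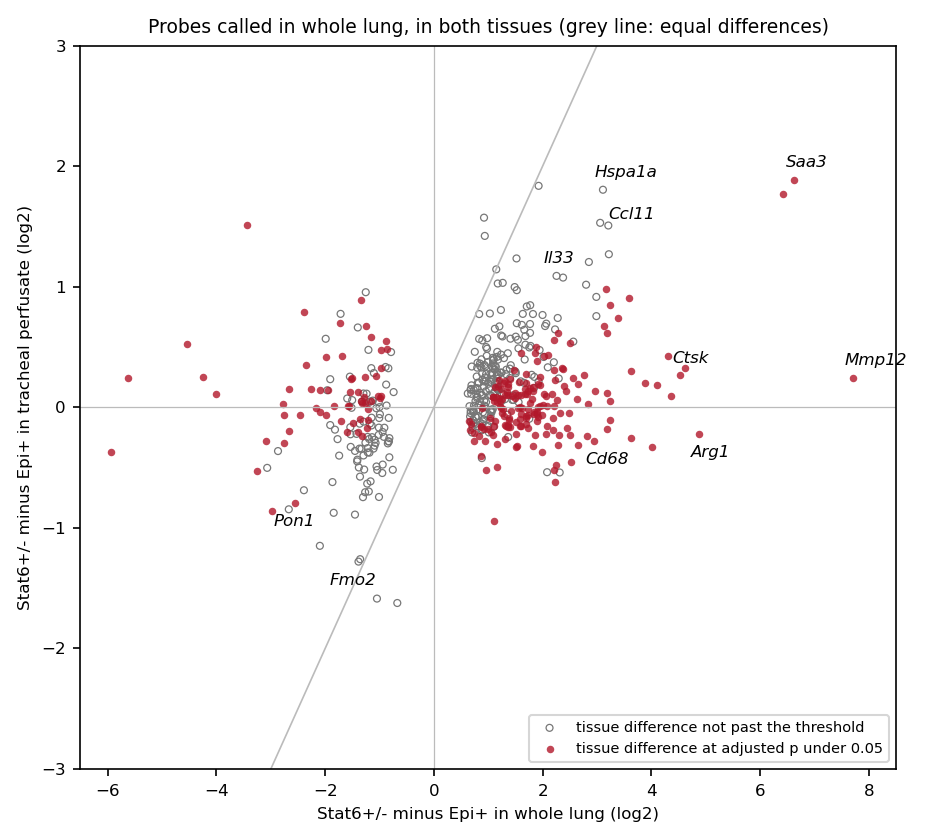
Stat6+/- minus Epi+ log2 difference in whole lung (x axis) and in tracheal perfusate (y axis) for probes called in whole lung, filled where the difference between tissues had an adjusted p under 0.05. Most probes lie near 0 in perfusate. Those above 1 there include Hspa1a, Ccl11, Il33 and Saa3, and also Ifi204 (1.23), Fcgr2b (1.02) and 4930471E19Rik (1.51), which was lower in lung.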

How the data were processed

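The deposited values are log2 ratios of 2-colour spotted arrays, 1 per spot for 19152 spots, with the reference in the first channel per the labels. No label or header names the scanner, the background correction or the normalization, and no spot intensities were used, so depth is expressed only as the number of arrays. Medians of the 10 arrays compared ranged from -0.931 to 0.29. Each array was centred on its median, and spots of 1 accession were averaged to 18272 probes. Gene symbols are those of the platform annotation after an update by RefSeq gene identifier: 15418 spots had 1 symbol, 7 several and 3727 were unlisted and stay unnamed.

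With limma 3.58.1 in R 4.3.3, a linear model was fitted per probe to the 15 IL-13 lung arrays, with the reference pool as a block and Benjamini-Hochberg adjustment over probes with at least 3 values in every group. A probe was called at an adjusted p under 0.05. Tissue terms came from a fit of all arrays of the platform, with 7 references as blocks and 1 spread per probe over both tissues. The fit was run on simulated data in which all groups had the same spread per probe, so that run says nothing about groups of unequal spread. Replicate numbers were not used to pair arrays, since same-numbered arrays did not regularly deviate together, which does not exclude that they were paired. Named genes were the 15 largest rises and falls among called probes with 1 symbol, up to 4 called members of each of 33 gene lists and a fixed set. Other members were named to describe their list. A gene with several probes was represented by the probe with most values. The arrays, though picked by title, and the lists were chosen with earlier results of these data known. Alternatives were other scalings, filters, blocks and array sets.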

Additional observations from a re-analysis of the deposited data

Results flagged for a closer look

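Arrays that stood apart from the rest of their group were sought in 200 groups of 4 or 5 values of named genes, and 12 (6%) were found, where chance gives about 1 in 20. Stat6+/- array 1 accounted for 6 of them. It was low among Stat6+/- arrays for Mmp12 (3.99, others 6.89 to 7.83), Rgs1 (0.918, others 3.92 to 4.94) and Fcgr2b (0.737, others 2.50 to 3.03). It was high for Fbp1 (4.91, others 3.37 to 3.59) and Ednrb (-0.41, others -2.01 to -1.80) and low for Gzmb (-4.31, others -1.47 to -0.361). Without this array the lung comparison gave 806 calls in place of 550.

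The other outlying values were Hal on Stat6+/- array 5 (6.26), Hspa5 on Stat6+/- array 3 (2.77), Muc4 on Stat6+/- array 6 (1.82), Rgs1 on Epi+ array 4 (-3.48), Ccl2 on Epi+ array 3 (1.24) and Defb4 on Epi+ array 6 (5.53). The Defb4 value set much of its group difference, which was -3.10 without it.

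The Stat6+/- minus Epi+ difference differed between lung and perfusate, by the interaction term of the limma fit, for Mmp12 (7.46 ± 1.09), Ntsr2 (5.19 ± 0.96), Arg1 (5.10 ± 0.74), 4930471E19Rik (-4.95 ± 1.25), Cyp7a1 (-5.14 ± 0.95), Defb4 (-5.87 ± 1.30), Snrpb2 (-5.83 ± 1.30) and 2210010C04Rik (-5.07 ± 0.74). These were the 8 largest terms. Their SE rest on 1 spread per probe over lung and perfusate arrays and can be too small where lung arrays vary more. For Ntsr2 and Snrpb2 the SE in lung alone were larger, 1.27 and 1.78. Ntsr2 and Snrpb2 were not called in lung alone (adjusted p = 0.074 and 0.129). Snrpb2 had 3 Epi+ values, 0.09, 0.07 and 7.97, of which that of array 6 stands far above the others. 2210010C04Rik had values on 2 Stat6-/- arrays and was therefore not tested in the lung comparison. Terms with the smallest adjusted p among the other named genes, picked after their values were seen, were those of Ctsk (4.27), Cd68 (3.22), Itgax (3.07), Clec7a (3.35), Mmp19 (3.36), Ch25h (4.34), Acp5 (2.45) and Ccl6 (3.18).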

How the results depend on the processing

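All 93 named calls kept their sign under every alternative, and 26 stayed past the threshold under each alternative apart from the single-pool fits, among them Mmp12, Saa3, Gpnmb, Ctsk, Ccl2, Cd68, Itgax, Clec7a, Ccl6, Ccl11, Il33 and Pon1. Another 25 of the 93 were kept under a minority of their alternatives, among them Adh1, Myh6, Ednrb, Pcna, Col15a1, Cav1, Kdr, Sftpd, Siglecf and Gsta3. The counts depended on the setting. For Stat6+/- against Epi+ lung (550 calls) they were 77 on the values as deposited, 218 with arrays scaled to one spread, 212 after quantile normalization, 282 without the pool block, 109 with only the 2 groups in the fit, 319 with array weights, 356 without Stat6-/- arrays 1 and 2, whose sex-linked genes stood apart, and 226 without Epi+ array 3 and Stat6+/- array 4 together, a setting chosen after seeing the data. The share of higher calls was 70.2% and rose to 81.6% after quantile normalization and 84.4% with only the 2 groups. Within pool 3 alone 13 probes passed and within pool 4 alone 0, where 1783 had an unadjusted p under 0.05. Leaving out 1 array gave 273 to 806 calls. The counts for Stat6+/- against Stat6-/- (779) were 284 as deposited, 456 scaled, 516 after quantile normalization, 391 without the block, 400 with only the 2 groups, 289 without Stat6-/- arrays 1 and 2, and 470 to 1066 with 1 array left out. As deposited, 35.9% of them were higher. For Epi+ against Stat6-/- (12) they were 6 as deposited, 4 without Stat6-/- arrays 1 and 2, and 7 to 13 with 1 array left out. For the tissue term (347) they were 84 as deposited, of which 34.5% were higher, 62 scaled, 83 after quantile normalization, 198 without reference blocks, 56 with only the groups compared, 206 with array weights, and 239 to 500 with 1 array left out. The causes were not tested. In the residuals of the fit, same-numbered Stat6+/- and Epi+ arrays correlated by 0.216, -0.313, -0.141 and -0.159. The group and pool terms of the fit shape such residuals, so these values cannot exclude pairing. The numbers were not used as pairs, and a replicate block gave 61, 95 and 7 calls in the 3 lung comparisons. Spot intensities were not used, so no limit by signal over background can be given.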

Other observations

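Some families outside the lists were looked at after their values were seen, so their counts are descriptions and the adjusted p-values behind them are those over all probes. Of 5 measured subunits of the phagocyte oxidase, which makes superoxide in neutrophils and macrophages, Cyba (1.69 ± 0.25), Ncf4 (2.07 ± 0.38) and Rac2 (1.78 ± 0.32) were higher in Stat6+/- than in Epi+ lung, where 2.4% of all probes were, and all 5 differences were above 0. Of 7 small proline-rich genes, which build the envelope of squamous epithelium, Sprr2a1 (3.22 ± 0.51), Sprr1a (2.85 ± 0.71) and Sprr2k (2.05 ± 0.47) were higher. Of 14 subunits of signal peptidase, the translocon and its associated complex, 4 were higher and all differences were above 0, with a median of 0.63.

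Of 27 measured Hox genes, which pattern the body axis, 5 were lower and none higher in Stat6+/- lung, where 1.02% of all probes were lower: Hoxb6 (-2.10 ± 0.45), Hoxb7 (-1.41 ± 0.31), Hoxa2 (-1.33 ± 0.25), Hoxa7 (-1.16 ± 0.28) and Hoxb3 (-0.84 ± 0.20). Over the family 17 of 27 differences were below 0, with a median of -0.34. None of the 30 extracellular matrix genes and none of the 14 smooth muscle genes was called lower, which is near the 1.02% over all probes. Of their differences, 17 of the 30 and 4 of the 14 were above 0.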
